A study of Mus musculus with 16 samples.

Results

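Transforming growth factor beta 1 (Tgfb1), its type I receptor Tgfbr1, the ubiquitin ligase Smurf1 and the target gene Ccn2 were followed as a ligand, a receptor, a regulator and a target of one signalling axis in 16 mouse livers. The members were chosen by name, with earlier results of these data known, and all 4 were among the 760 genes of the panel. The mice were male C57BL/6J animals made ill by diet, as a model of MASH, in which fat-laden liver becomes inflamed and scarred. All 16 were housed at 29 degrees C and fed 40 kcal% fat, mostly from palm oil, with 20 kcal% fructose and 0.02% cholesterol. Of these, 8 received EVT0185 by gavage at 100 mg/kg and 8 received a vehicle made with CMC at 1.5% and Tween-20 at 0.2%. By its title, the series concerns EVT0185 acting on acetyl-CoA enzymes and on hepatic stellate cells, and the comparison asks how liver transcripts differ after dosing. All values come from livers on the disease diet, and the sources used here give no mouse age and no length of dosing. The labels do not say whether EVT0185 was given in the same vehicle.

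TGF-beta is secreted in a latent form, and integrins, thrombospondin and proteases release it. The free ligand brings the type II receptor Tgfbr2 together with Tgfbr1, a kinase that phosphorylates Smad2 and Smad3, which enter the nucleus with Smad4. Smurf1 marks Smad proteins and, with inhibitory Smads, the type I receptor for degradation. Ccn2, also called connective tissue growth factor, is a secreted matrix-associated protein that TGF-beta and the Hippo effector YAP induce, and the pathway is known in liver for driving collagen production by stellate cells.

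RNA was counted with fluorescent barcodes on the nCounter platform, and a normalized count is the count of a gene times 1 scaling factor per sample. Recovered total counts ranged from 1462994 to 1850800 per sample. Hepatocyte markers were abundant, and Apoa2 and Apoa1, apolipoproteins made by hepatocytes, averaged 192325 and 93694 normalized counts over all samples. All 9 T and NK cell markers in the table lay below the floor of 20 normalized counts. EVT0185 animal 2 and vehicle animal 7 had the lowest median log2 values over the panel, 6.92 and 6.97, against 7.05 or more in each other sample. By mean log2 value vehicle 7, at 7.27, lay above EVT0185 3, at 7.20. Without both animals, 213 genes were called in place of 200, and the calls of the 4 members were the same.

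The receptor and the ligase were lower in EVT0185 livers, the ligand was not called, and the target was lower on average without passing the threshold. Tgfbr1 was 1.34-fold and Smurf1 1.33-fold lower. Of the 4 members, 2 passed limma at a Benjamini-Hochberg adjusted p under 0.05 over 612 tested genes, both of them lower, while 32.7% of all tested genes passed, 21.6% as lower and 11.1% as higher. In whole liver, fewer cells of a type and less RNA per cell cannot be told apart. At no member were the groups free of overlap, which was the case for 6.86% of tested genes. The median tested gene differed by log2 -0.10 between the groups, and relative to it Tgfbr1, Smurf1 and Ccn2 lay lower by log2 -0.32, -0.31 and -0.38 and Tgfb1 by 0.019 higher. Of the 200 called genes 34% were higher, against 56.2% of the 176 genes called after centring each sample on its median.

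**Figure D1:**
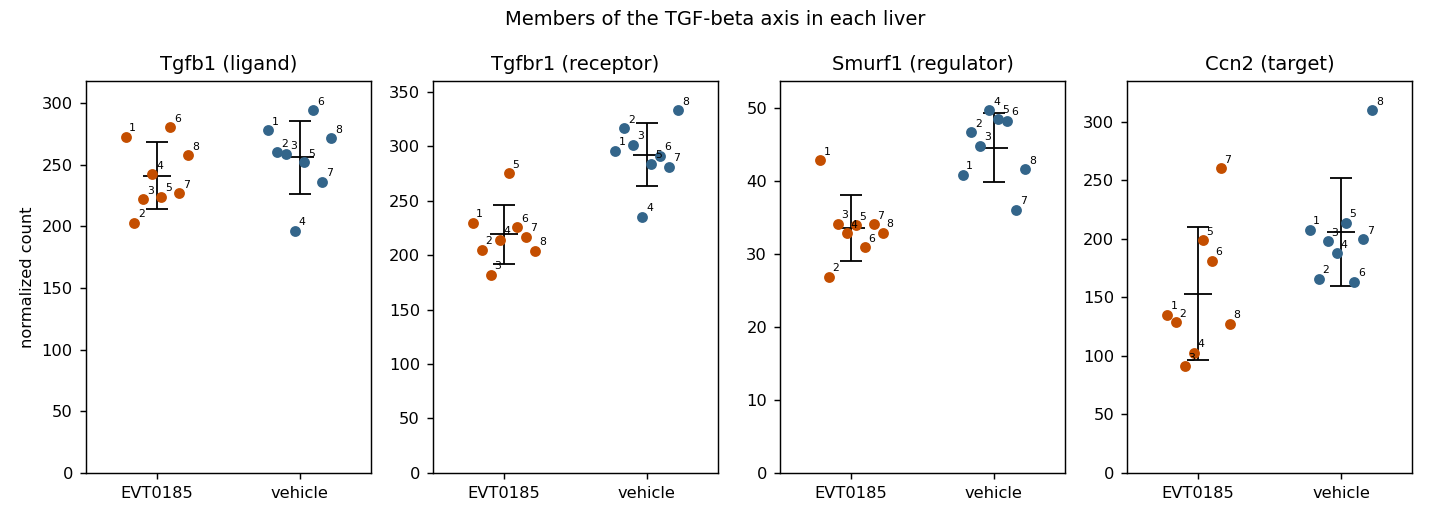
Normalized counts of Tgfb1, Tgfbr1, Smurf1 and Ccn2 (y axis, from 0) in each of 8 EVT0185 and 8 vehicle livers (x axis). Points are animals with their replicate number and bars are mean ± SD; 7 of 8 EVT0185 animals lie below every vehicle animal for Tgfbr1 and for Smurf1, while the groups overlap widely for Tgfb1.

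Tgfb1, the ligand, had a lowest, median and highest normalized count of 203, 235 and 281 in EVT0185 livers, against 196, 259 and 294 in vehicle livers. The means were 241 ± 27.1 in EVT0185 and 256 ± 29.7 in vehicle livers (SD, n = 8 each). The groups covered almost the same range, and 6 of 8 EVT0185 animals lay below the vehicle median. The log2 fold change was -0.084 (SE 0.091, 95% interval -0.27 to 0.11, limma adjusted p = 0.529), so a decrease by over 0.27 lay outside the interval. The sign turned after centring each sample on its median (0.029), and after quantile normalization (0.017). The difference was -0.14 without vehicle 4, the vehicle animal with the lowest value, and -0.049 without EVT0185 2.

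Tgfbr1, the type I receptor kinase, had a lowest, median and highest normalized count of 182, 216 and 275 in EVT0185 livers, against 235, 294 and 333 in vehicle livers. Of 8 EVT0185 animals, 7 lay below the lowest vehicle animal, and EVT0185 5, at 275, lay inside the vehicle range. The means were 219 ± 27.1 in EVT0185 and 292 ± 28.8 in vehicle livers (SD, n = 8 each), a log2 fold change of -0.42 (SE 0.087, limma adjusted p = 0.00138). An exact permutation test over all 12870 assignments of the animals gave a two-sided p of 0.000311, where 0.000155 is the smallest possible. The call held after centring on the median (log2 -0.31, limma adjusted p = 0.00848) and after quantile normalization (log2 -0.31, limma adjusted p = 0.0073). Without EVT0185 2 and vehicle 7 it was log2 -0.41. By p it ranked 63 of the 612 genes. Tgfbr2, the type II receptor that pairs with it, ran from 304 to 591 normalized counts in EVT0185 and from 306 to 567 in vehicle livers and differed by log2 -0.026 (SE 0.16, limma adjusted p = 0.904). That sign was positive, at 0.087, after median centring.

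Smurf1, the ubiquitin ligase, had the fewest counts of the 4, which sets its precision and not its rank in abundance. Its lowest, median and highest normalized counts were 26.8, 33.4 and 42.8 in EVT0185 livers, against 36.1, 45.7 and 49.7 in vehicle livers. All EVT0185 animals except number 1 lay below the lowest vehicle animal, which was number 7. The means were 33.5 ± 4.47 in EVT0185 and 44.5 ± 4.7 in vehicle livers (SD, n = 8 each), a log2 fold change of -0.41 (SE 0.10, limma adjusted p = 0.00562, exact permutation p = 0.000622). These values rest on 25 to 46 recovered counts per EVT0185 animal and 34 to 49 per vehicle animal. Counting alone gives an SD of log2 0.25 and 0.22 at such counts, above the observed SD between animals of 0.19 in EVT0185 and 0.16 in vehicle livers, so differences between animals of 1 group cannot be resolved at this depth. The call held after centring on the median (log2 -0.30, limma adjusted p = 0.0242) and ended after quantile normalization (log2 -0.18, limma adjusted p = 0.214).

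Ccn2, the target gene, varied most between animals. Its lowest, median and highest normalized counts were 91.0, 132 and 260 in EVT0185 livers, against 163, 199 and 310 in vehicle livers. Of 8 EVT0185 animals, 5 lay below every vehicle animal, while numbers 5, 6 and 7, at 199, 181 and 260, lay inside the vehicle range. The means were 153 ± 56.5 in EVT0185 and 206 ± 45.9 in vehicle livers (SD, n = 8 each). The log2 fold change of -0.48 was the largest among the members but had the widest error (SE 0.19, 95% interval -0.88 to -0.079) and missed the threshold (limma adjusted p = 0.0612, unadjusted p = 0.0215, exact permutation p = 0.0364). It passed without EVT0185 7 (log2 -0.60, limma adjusted p = 0.0126) and without EVT0185 5 (log2 -0.54, limma adjusted p = 0.0406). Without vehicle 8, the highest of the vehicle animals, it was log2 -0.39 (limma adjusted p = 0.127). The difference was smaller after centring on the median (log2 -0.37, limma adjusted p = 0.135) and after quantile normalization (log2 -0.35, limma adjusted p = 0.144). Ccn2 did not pass the exact rank-sum test either (adjusted p = 0.116). The SD of log2 values was 0.51 in EVT0185 and 0.29 in vehicle livers, a ratio of 1.76, where the median ratio of the 612 tested genes was 0.79 and 95.8% of them had a ratio as low or lower. Counting error at Ccn2 was log2 0.12 in EVT0185 and 0.10 in vehicle livers, well under both SDs.

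**Figure D2:**
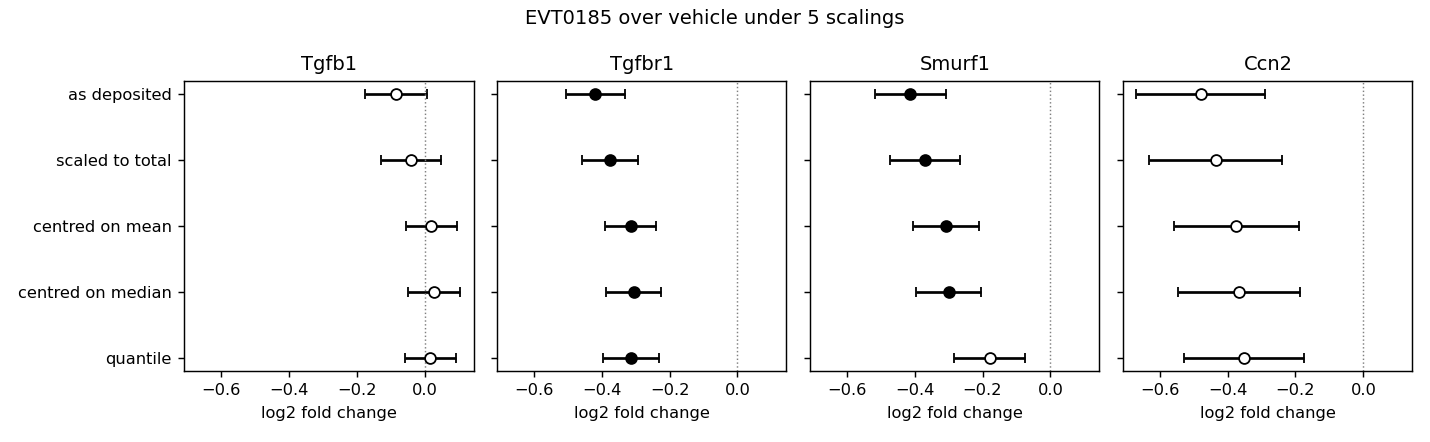
Log2 fold change of each member, EVT0185 over vehicle (x axis), under 5 ways of scaling the samples (rows). Points are limma estimates with bars of 1 SE, filled where the adjusted p is under 0.05; Tgfbr1 is filled in all 5 rows, Smurf1 is not filled after quantile normalization, and Tgfb1 lies on both sides of 0.

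The promoters of Tgfb1, Tgfbr1 and Smurf1 are shown to set the ligand, which was not called, beside the receptor and the ligase, which both fell by about the same amount. The promoter set used here held no window for Ccn2, so its motifs were not read. Each window runs from 250 bases before to 50 bases after a transcription start in RefSeq (GRCm38.p6), written 5′ to 3′ along the gene. Tgfbr1 had 2 listed promoters, and the window nearest the gene start was taken. At Smurf1 the transcription start used lay 69 bases from the gene start. The windows are chr7:25686752-25687051 on the plus strand for Tgfb1, chr4:47352972-47353271 on the plus strand for Tgfbr1 and chr5:144965781-144966080 on the minus strand for Smurf1. Capitals mark the letters GGGCGG on either strand, the GC box that Sp1 binds.
Tgfb1: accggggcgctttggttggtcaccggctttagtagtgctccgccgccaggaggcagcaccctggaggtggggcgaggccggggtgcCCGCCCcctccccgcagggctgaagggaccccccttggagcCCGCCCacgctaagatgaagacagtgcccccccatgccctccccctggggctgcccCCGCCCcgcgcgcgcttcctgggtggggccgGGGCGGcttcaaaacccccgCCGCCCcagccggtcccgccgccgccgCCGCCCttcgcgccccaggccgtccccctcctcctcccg
Tgfbr1: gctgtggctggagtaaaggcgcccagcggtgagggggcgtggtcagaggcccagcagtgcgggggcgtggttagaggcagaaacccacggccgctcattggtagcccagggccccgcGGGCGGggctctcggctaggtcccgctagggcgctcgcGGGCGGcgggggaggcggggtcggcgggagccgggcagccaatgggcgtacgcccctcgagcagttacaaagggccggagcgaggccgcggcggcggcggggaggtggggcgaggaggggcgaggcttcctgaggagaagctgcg
Smurf1: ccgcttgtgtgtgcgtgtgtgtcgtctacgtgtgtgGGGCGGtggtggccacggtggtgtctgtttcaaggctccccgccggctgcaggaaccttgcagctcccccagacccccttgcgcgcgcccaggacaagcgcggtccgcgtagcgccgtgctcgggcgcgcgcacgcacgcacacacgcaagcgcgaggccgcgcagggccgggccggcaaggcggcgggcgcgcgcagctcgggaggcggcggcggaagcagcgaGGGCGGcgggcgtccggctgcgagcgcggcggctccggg

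All 3 windows were rich in G and C, at 77% for Tgfb1, 74.7% for Tgfbr1 and 76.3% for Smurf1, where the median of 32851 promoter windows of this length was 52.7%. GGGCGG occurred 6 times at Tgfb1 and 2 times at Tgfbr1 and at Smurf1, and 35.7% of all windows hold it. CAGAC, the short core that Smad proteins bind, occurred 2 times at Smurf1 and 0 times at Tgfb1 and Tgfbr1, and 49.6% of all windows hold it. GGAATG, the core of TEAD sites of the Hippo pathway, was in none of the 3 and is in 14.7% of all windows. Both strands were read, and none of the 3 motifs contains another. Sp1 itself, which is on the panel, had a log2 fold change of -0.21 (SE 0.11, limma adjusted p = 0.148). It passed without vehicle 7 (log2 -0.27, limma adjusted p = 0.033).

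Ratios within an animal, which do not depend on the sample's scaling factor, put the receptor and the ligase lower relative to the ligand. All 6 pairs of members were compared by exact permutation tests of the log2 ratio, with p-values adjusted over the 6. Probes differ in how well they capture RNA, so the level of a ratio has no meaning of its own and only the difference between groups is read. The Tgfbr1 over Tgfb1 ratio was -0.14 ± 0.21 in EVT0185 and 0.19 ± 0.11 in vehicle livers (SD of log2, n = 8 each), a difference of -0.33 (SE 0.085, exact permutation p = 0.00357, adjusted p = 0.0135). It lay below every vehicle animal in 6 of 8 EVT0185 animals, and EVT0185 5 had the highest ratio of all 16, at 0.295. The Smurf1 over Tgfb1 ratio differed by the same amount, log2 -0.33 (SE 0.11, exact permutation p = 0.00451, adjusted p = 0.0135), with means of -2.85 ± 0.18 in EVT0185 and -2.52 ± 0.25 in vehicle livers (SD, n = 8 each). That call ended after quantile normalization (log2 -0.20, exact permutation adjusted p = 0.325) and with a pseudocount of 20 (log2 -0.19, exact permutation adjusted p = 0.0904). The Tgfbr1 over Smurf1 ratio differed by log2 -0.0057 (SE 0.12, exact permutation adjusted p = 0.962), with a 95% interval of -0.26 to 0.25.

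No ratio that holds Ccn2 passed with all 16 animals. The Ccn2 over Tgfb1 ratio was -0.73 ± 0.52 in EVT0185 and -0.33 ± 0.33 in vehicle livers (SD of log2, n = 8 each), a difference of -0.39 (SE 0.22, exact permutation adjusted p = 0.191). It passed without EVT0185 7 (log2 -0.53, exact permutation adjusted p = 0.0342). The Ccn2 over Tgfbr1 and Ccn2 over Smurf1 ratios differed by log2 -0.060 (SE 0.18) and -0.066 (SE 0.23), with adjusted p = 0.932 for both in the exact permutation test.

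**Figure D3:**
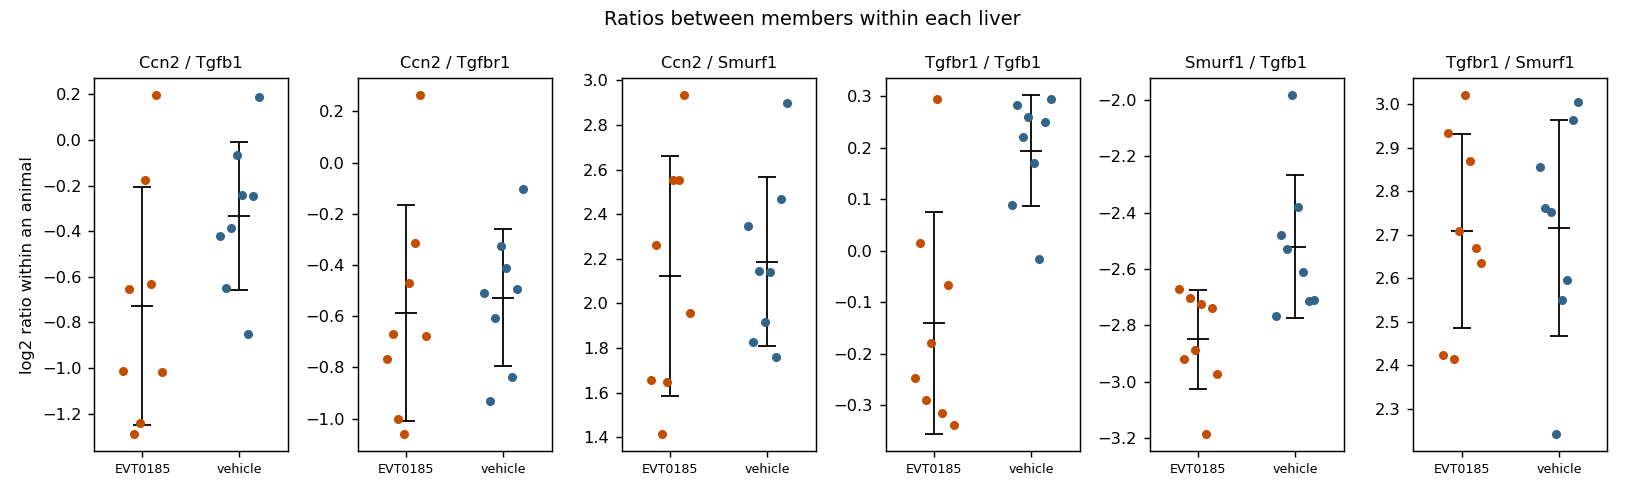
Log2 ratio of each pair of members within an animal (y axis) in 8 EVT0185 and 8 vehicle livers (x axis, 6 panels). Points are animals and bars are mean ± SD; the Tgfbr1 over Tgfb1 and Smurf1 over Tgfb1 ratios differ between the groups by log2 -0.33 each, and the Tgfbr1 over Smurf1 ratio by -0.0057.

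Within a group, no relation between the members' levels passed after adjustment. Of 12 correlations (6 pairs in each group, n = 8 animals each), 0 passed at an adjusted p under 0.05 in exact permutation tests and 1 had an unadjusted p under 0.05. That one was Tgfbr1 with Tgfb1 in vehicle livers (Pearson r = 0.80, exact permutation p = 0.0341, adjusted p = 0.409, Spearman rho = 0.62, p = 0.115, adjusted p = 0.69). Without the 2 animals farthest from the median of Tgfb1 its r was 0.63. In EVT0185 livers the same pair had r = 0.17 and rho = 0.38 (exact permutation p = 0.706 and 0.36), and its r turned to -0.57 with median-centred and -0.31 with quantile-normalized values. Ccn2 with Tgfbr1 had r = 0.62 and rho = 0.76 in EVT0185 livers (exact permutation p = 0.101 and 0.0368, adjusted p = 0.606 and 0.441), and r was 0.30 without the 2 animals farthest from the median of Tgfbr1. In vehicle livers it had r = 0.39 and rho = 0.19 (exact permutation p = 0.277 and 0.665), and r was -0.53 without the 2 farthest animals. Ccn2 with Tgfb1 itself had r = 0.055 in EVT0185 and 0.083 in vehicle livers (exact permutation p = 0.894 and 0.816), with rho = 0.19 and -0.095 (p = 0.665 and 0.84). In EVT0185 livers that r turned to -0.42 with median-centred and -0.48 with quantile-normalized values. Whether these relations differ between the groups was not tested.

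The genes whose animal-to-animal pattern was most like Ccn2 were genes of collagen production and of stellate cells. Likeness was Pearson's r over the 16 animals of log2 values after subtracting each sample's median and each group's mean, and the 3 highest of 611 genes are named as a description with no p. They were Serpinh1, the collagen chaperone Hsp47 (r = 0.81), Col1a2, a chain of type I collagen (r = 0.78), and Reln, reelin, which hepatic stellate cells express (r = 0.73). Within EVT0185 livers alone r was 0.85, 0.87 and 0.96, and within vehicle livers alone it was 0.81, 0.75 and 0.50. EVT0185 7, with the most Ccn2 of its group, also had the most Serpinh1, Col1a2 and Reln of its group, at 275, 227 and 311 normalized counts, and EVT0185 3, with the least Ccn2, had the least Serpinh1 and Reln, at 140 and 152. Vehicle 8 had the highest value of all 16 animals for each of the 4 genes. Between the groups Serpinh1 was 1.37-fold lower (limma adjusted p = 0.00957) and Col1a2 1.8-fold lower (limma adjusted p = 0.00295), and Reln differed by log2 -0.41 (SE 0.16, limma adjusted p = 0.0641). Reln passed without EVT0185 7 (adjusted p = 0.0350), vehicle 3 (adjusted p = 0.0460) or vehicle 7 (adjusted p = 0.0274), each in limma.

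**Figure D4:**
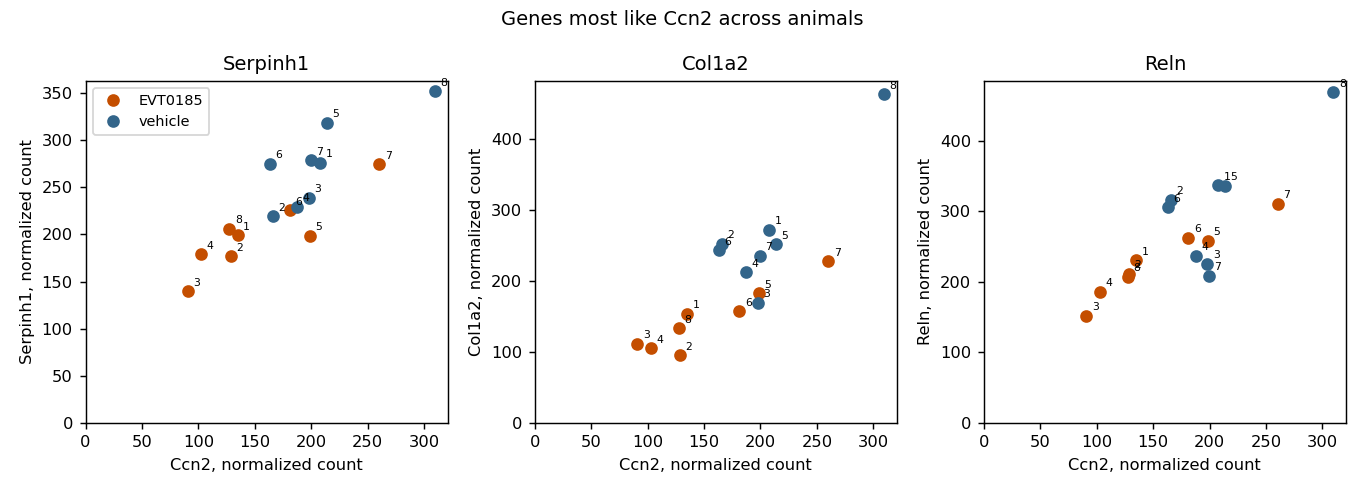
Normalized counts of Serpinh1, Col1a2 and Reln (y axes) against Ccn2 (x axis) in the 8 EVT0185 and 8 vehicle livers, with replicate numbers beside the points. EVT0185 7 has the most of each of the 4 genes among EVT0185 livers, and vehicle 8 the most among all 16.

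The other members had other neighbours. Most like Tgfb1 were Nr1h4, the bile acid receptor FXR (r = 0.77), the adiponectin receptor Adipor1 (r = 0.73) and Cdh5, the cadherin of endothelial cells (r = 0.71), none of which passed between the groups (limma adjusted p = 0.766, 0.829 and 0.778). Most like Tgfbr1 were the apolipoprotein Apoc3 (r = 0.68), the bile acid synthesis enzyme Cyp8b1 (r = 0.67) and the collagen-modifying enzyme Loxl2 (r = 0.67). Of these, Apoc3, free of overlap between the groups, was lower by 1.56-fold (log2 -0.64, limma adjusted p = 5.14e-05), Loxl2 was 1.34-fold lower (limma adjusted p = 0.0281), and Cyp8b1 differed by log2 -0.36 (SE 0.28, limma adjusted p = 0.352). After quantile normalization Apoc3 was no longer called (log2 -0.23, limma adjusted p = 0.0558). For Smurf1, whose spread within a group did not exceed counting error, the highest r were 0.65 with the autophagy gene Atg101, 0.60 with Mmrn1 and 0.58 with Tradd.

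Around the members, genes that passed were found in the lists of ligand release and of target genes, and the Smad genes were not called. Of 132 genes written down for the pathway and for Hippo signalling, 50 were in the table and 47 were tested, and 12 of these were lower and 0 higher, members included. At an unadjusted p under 0.05, 15 were lower and 1 higher in limma, and an exact rank-sum test with adjustment called 10 lower and 0 higher. Leaving out the members, 10 of 43 were lower. Both shares are near the 21.6% of all tested genes that were lower, and are no result about the pathway. After centring on the median 9 of the 47 were lower and 3 higher, the higher ones being Amotl2, Itgb1 and Smad2, and after quantile normalization 8 were lower and 3 higher. Without EVT0185 2 and vehicle 7, 17 were lower and 0 higher.

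Of 8 tested genes that bind or release latent TGF-beta, 4 were lower, where 21.6% of all tested genes were lower. The adjusted rank-sum test called 3 of the 8 lower. Mmp2, a gelatinase, had 8.27 to 37.6 normalized counts in EVT0185 and 31.8 to 109 in vehicle livers, a log2 fold change of -1.23 or 2.35-fold lower (SE 0.28, limma adjusted p = 0.00287). Thbs1, thrombospondin 1, was 1.6-fold lower (limma adjusted p = 0.00477), at 10.6 to 23.6 in EVT0185 and 22.9 to 38.2 in vehicle livers, so both genes lay near the floor in EVT0185 animals. The mean of Thbs1, 18.5 in EVT0185 and 29.1 in vehicle livers, was below the floor of 20 in EVT0185 livers, and the gene entered the test through its vehicle values. Mmp14, a membrane-bound protease, was 1.4-fold lower (limma adjusted p = 0.023), and it did not pass the exact rank-sum test (adjusted p = 0.0768). Plg, plasminogen from hepatocytes, was 1.3-fold lower (limma adjusted p = 0.00738), a call that ended after median centring (limma adjusted p = 0.0938) and quantile normalization (limma adjusted p = 0.0893). The integrin chain Itgb1 had a log2 fold change of 0.11 (SE 0.058, limma adjusted p = 0.181). It passed after median centring, at 0.22.

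Of 4 Smad genes 0 passed in limma, 1 had an unadjusted p under 0.05, and 0 passed the adjusted rank-sum test. Smad2, which the receptor phosphorylates, ran from 165 to 242 normalized counts in EVT0185 and from 118 to 202 in vehicle livers, a log2 fold change of 0.23 (SE 0.11, limma adjusted p = 0.115). It was called higher after median centring (log2 0.35, limma adjusted p = 0.0225) and after quantile normalization (log2 0.31, limma adjusted p = 0.0268). Smad3, its partner, ran from 107 to 173 in EVT0185 and from 83.8 to 196 in vehicle livers and differed by log2 -0.26 (SE 0.15, limma adjusted p = 0.213). Without vehicle 7, whose 83.8 was the lowest, Smad3 was called lower (log2 -0.40, limma adjusted p = 0.00415). Smad4, the common partner, differed by log2 0.009 (SE 0.084, limma adjusted p = 0.937). Of 10 tested regulators, Smurf1 alone passed in limma, and 3 passed as lower in the adjusted rank-sum test.

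Of 16 tested target genes, 6 fell and 0 rose, with a median log2 fold change of -0.39 where the median of all 612 tested genes was -0.10 and 21.6% of them were lower. The adjusted rank-sum test called 3 of the 16 lower. The 6 were matrix genes: the fibrillar collagen chains Col1a1 (1.93-fold lower), Col1a2, Col3a1 (1.65-fold) and Col5a1 (1.37-fold), fibronectin Fn1 (1.53-fold) and Loxl2. Fn1 spanned 5047 to 6160 normalized counts in EVT0185 and 5024 to 12664 in vehicle livers, so the wide spread was on the vehicle side. Col1a1 spanned 45.9 to 148 in EVT0185 and 66.7 to 378 in vehicle livers, and the groups overlapped. After median centring 4 of the 16 were lower, Col5a1 and Loxl2 being lost, where 77 of all 612 tested genes were lower. In the exact rank-sum test Col3a1 and Loxl2 (adjusted p = 0.0768 each) and Col5a1 (adjusted p = 0.116) did not pass. The call of Col5a1 also ended without any 1 of 11 animals, which were EVT0185 2, 3, 4, 5, 6 and 8 and vehicle 1, 3, 5, 6 and 8 (limma adjusted p from 0.0525 to 0.0809). That of Loxl2 ended without EVT0185 8 or vehicle 1, 2 or 8 (limma adjusted p from 0.0511 to 0.0571). Among targets that were not called, the log2 fold change of Postn was 0.011, of Snai2 -0.39 and of Cdkn1a -0.39 (limma adjusted p = 0.961, 0.189 and 0.144). The actin of myofibroblasts, Acta2, had a log2 fold change of -0.21 (SE 0.25, limma adjusted p = 0.571). Of 16 genes written down for Hippo signalling, another route to Ccn2, 6 were in the table. Yap1, Wwtr1 and the Tead genes were not among them, so this route was not seen at those genes. Of the 6, 0 passed in limma or the adjusted rank-sum test and 0 had an unadjusted p under 0.05. The smallest limma adjusted p was 0.209, for Lats2, and Amotl2 differed by log2 0.22 (limma adjusted p = 0.283). Amotl2 was called higher after median centring (log2 0.34, limma adjusted p = 0.0471), and the kinase co-activator Mob1b, at log2 0.11 as deposited, after quantile normalization (log2 0.20, limma adjusted p = 0.0424) and mean centring.

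**Figure D5:**
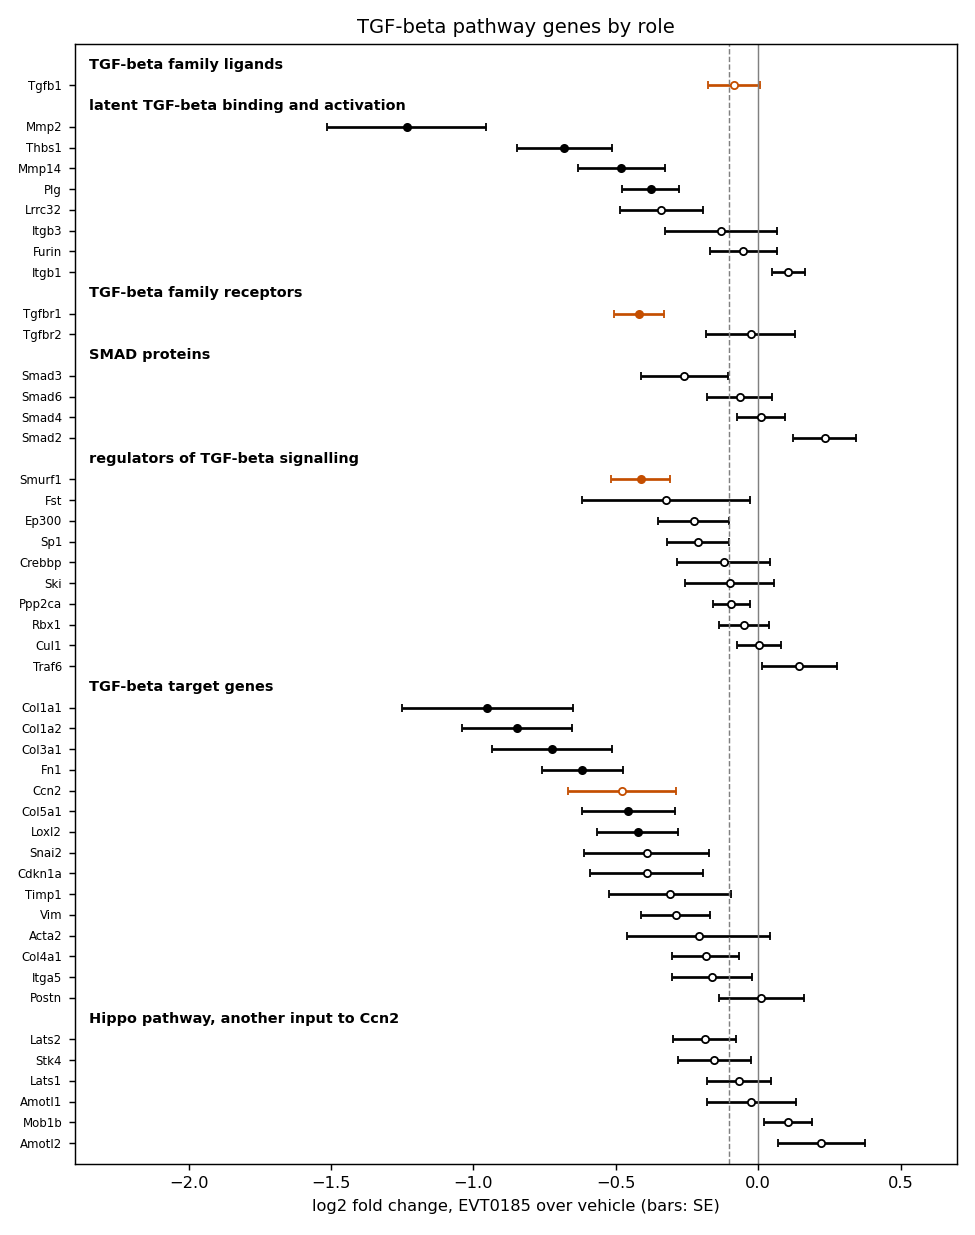
Log2 fold change, EVT0185 over vehicle (x axis), of the tested pathway genes by role (rows), with bars of 1 SE and 1 target gene not shown. Filled points have a limma adjusted p under 0.05, coloured points are the members, and the dashed line is the median tested gene at -0.10; the 12 filled points all lie below 0.

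Some markers of cell types were called lower in EVT0185 livers, as were 21.6% of all tested genes. No marker sum was tested against a member. Of 10 tested stellate cell and myofibroblast markers, 5 were lower and 0 higher, 3 of them collagen genes that the target list also holds, and their summed level ranged from 1404 to 2448 normalized counts in EVT0185 and from 1997 to 3770 in vehicle livers. The highest sums of each group were those of EVT0185 7, at 2448, and vehicle 8, at 3770, the animals with the most Ccn2 in their groups. These sums hold Col1a2 and Reln, which were picked above for their likeness to Ccn2. Of 14 hepatocyte markers, 8 were lower and 0 higher, with sums from 479503 to 557722 in EVT0185 and from 557163 to 713037 in vehicle livers. A few abundant genes weigh most in these sums, such as Apoa1, with means of 61623 in EVT0185 and 125765 in vehicle livers. Apoa2, the most abundant, differed in the other direction (log2 0.17, limma adjusted p = 0.144), and Cyp2e1 differed by log2 -0.10 (limma adjusted p = 0.563). The adjusted rank-sum test also called 8 of the 14 lower. After median centring Apob, Fgg and Plg were no longer called (limma adjusted p = 0.141, 0.129 and 0.0938). Of 6 macrophage markers 2 were lower, Cd68 and Ccr2, with sums from 982 to 1331 in EVT0185 and from 808 to 2776 in vehicle livers. Marco (log2 0.51, limma adjusted p = 0.540) and Cd163 (log2 0.29, limma adjusted p = 0.673) differed in the other direction without being called. Csf1r and Cd14 differed by log2 -0.14 each (limma adjusted p = 0.521 and 0.571). The adjusted rank-sum test called 1 of the 6 lower, and Cd68 was no longer called after median centring (limma adjusted p = 0.0973). Of 6 endothelial markers 0 passed in limma or the rank-sum test and 0 had an unadjusted p under 0.05, with sums from 848 to 1136 in EVT0185 and from 762 to 1216 in vehicle livers. The 1 tested neutrophil marker, Csf3r (log2 -0.54, limma adjusted p = 0.0371), and the 1 tested cholangiocyte marker, Spp1 (log2 -0.94, limma adjusted p = 0.0427), were lower. Neither passed after median centring (limma adjusted p = 0.0901 and 0.0701). Mean normalized counts of Csf3r were 18.4 in EVT0185 and 25.9 in vehicle livers. Its EVT0185 mean lay below the floor, and the gene entered the test through its vehicle values. The part of these cell types in the differences at Tgfbr1, Smurf1 and Ccn2 was not tested.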

How the data were processed

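The design text says that nSolver 4.0 and a geometric mean were used by the authors to scale the Fibrosis Panel counts. Values were deposited as log2. Divided by 1 factor per sample, 100% of the linear values were whole counts, to within 0.1 of a count. The sources used here do not say which genes set that factor, and the mean log2 value still differed between samples. Negative control probes were not analysed here. Labels name each sample a separate biological replicate.

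The 612 genes with a mean normalized count of at least 20 were tested with limma 3.58.1 in R 4.3.3 (lmFit, eBayes with a variance trend, no covariate) on the deposited log2 values, two-sided, with Benjamini-Hochberg adjustment over all 612. SE is limma's moderated standard error. Ratios and correlations used exact permutation tests (Python 3.11.15). Promoters came from RefSeq. The members and lists were chosen with earlier results of these data known. Genes named are the members, list members past the threshold or with the smallest p, targets, paralogs and Smads on the panel, and the 3 genes most like each member. Itgb1, the markers and some examples were chosen after their values were seen. Alternatives changed scaling, pseudocount, floor, variance model, weights, test, the replicate block and the animals included. The values of 1 tested target gene are not reported here.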

Additional observations from a re-analysis of the deposited data

Results flagged for a closer look

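Over the members, the named genes and the 6 ratios, 92 groups of 8 animals were examined for an animal set far from the rest by Dixon's test of its gap to its neighbour over the group's range, and 9 were found; chance alone marks about 1 group in 20. Vehicle 8 stood far above the other vehicle animals for Ccn2, at log2 8.28 where the others ran from 7.35 to 7.74, and for Col1a2, at 8.85 where the others ran from 7.40 to 8.09. Vehicle 7, 1 of the 2 samples with the lowest panel medians, stood far below the others for Smad3 (6.39, others from 7.34), Sp1 (7.33, others from 7.70) and Amotl2 (6.53, others from 7.32). Vehicle 4 stood far below the others for Nr1h4 (10.21, others from 10.72), Cdh5 (6.77, others from 7.26) and Acta2 (4.31, others from 5.21). EVT0185 3 stood far below the others for Mmp2, at 3.05 where the others ran from 4.38 to 5.23. No ratio between members was marked.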

How the results depend on the processing

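Tgfbr1 kept its direction and its call under every alternative run, from log2 -0.47 to -0.38 with 1 animal left out. Tgfb1 turned sign after centring on the median (0.029), on the mean of all genes (0.020) and after quantile normalization (0.017), and ran from -0.14 to -0.049 with 1 animal left out. Smurf1 lost its call after quantile normalization (-0.18) and ran from -0.46 to -0.37 with 1 animal left out, always past the threshold; it lay below the floor of 100 and has no value there. Ccn2 was not called after centring on the median (-0.37) or on the mean (-0.37), quantile normalization (-0.35) or scaling to the total (-0.44). Ccn2 ran from -0.60 to -0.38 and the count of called genes from 170 to 236 (main 200) with 1 animal left out. Of the 200 called genes 34% were higher. Of the genes called under other scalings, 56.2% of 176 were higher after median centring and 53.7% of 190 after centring on the mean. The share was 54.4% of 195 after quantile normalization and 42.6% of 188 after scaling to the total. These 4 scalings moved the median gene by 0.11, 0.10, 0.12 and 0.043.

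Replicate numbers did not pair the animals: same-numbered animals deviated together with r from -0.14 to 0.46, and number 3 alone correlated best with its own number. With the replicate block 190 genes were called, and the Tgfbr1 over Tgfb1 (-0.33) and Smurf1 over Tgfb1 (-0.33) ratios each had an exact sign-flip adjusted p = 0.0703. The Smurf1 over Tgfb1 ratio also missed the threshold after quantile normalization (-0.20) and with a pseudocount of 20 (-0.19). With 1 animal left out, the Ccn2 over Tgfb1 ratio ran from -0.53 to -0.31, the Ccn2 over Tgfbr1 ratio from -0.18 to 0.0075, the Ccn2 over Smurf1 ratio from -0.18 to 0.036 and the Tgfbr1 over Smurf1 ratio from -0.073 to 0.036, the last 3 crossing 0.

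Among other genes Tgfbr2 turned sign after centring on the median (0.087) or mean (0.078), quantile normalization (0.086) and scaling to the total (0.017), Acta2 (0.0031) and Itga5 (0.070) after quantile normalization, Postn with sample weights (-0.064), and Tradd without EVT0185 2 and vehicle 7 (-0.0044), an alternative chosen after seeing the data. With 1 animal left out Tgfbr2 ran from -0.11 to 0.051, Smad4 from -0.022 to 0.051, Postn from -0.092 to 0.065, Nr1h4 from -0.037 to 0.093, Adipor1 from -0.017 to 0.051, Cdh5 from -0.037 to 0.086 and Tradd from -0.031 to 0.048. The cause of these changes was not tested. Smurf1, Mmp2, Thbs1 and Csf3r are limited by low counts.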
